A study of Homo sapiens with 6 samples.

Results

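Chromosome 19 carries the densest collection of zinc-finger genes in the human genome. The members described here were the protein-coding genes of chromosome 19 whose name is ZNF followed by a number. The rule uses name, biotype and chromosome and no measured value, although it was set with earlier results of these data known. The rule found 249 genes among the 58735 rows of the count table, of 1472 protein-coding genes on the chromosome. The table itself assigned 239 of the 249 to the zf-C2H2 family of transcription factors, and 3 carry a readthrough name that joins neighbouring genes (ZNF559-ZNF177, ZNF625-ZNF20 and ZNF816-ZNF321P). RNA was sequenced from 6 libraries of a human colorectal cancer cell line, 3 from cells with stable CNOT7 knockdown by shRNA and 3 from cells with the control construct, and neither group received a treatment. The labels name the line SW480 whereas the study's text names HCT116 for this experiment, and which shRNA the knockdown libraries carry was not stated. CNOT7 is a deadenylase subunit of the CCR4-NOT complex, which shortens the poly(A) tails of mRNAs. The comparison asks how the transcripts of this gene family stood after the loss of that subunit.

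Most of these genes encode proteins with a tandem array of C2H2 zinc fingers that reads a DNA sequence and, in many, an amino-terminal KRAB domain. The KRAB domain recruits TRIM28, which brings in histone methyltransferase, HP1 proteins and histone deacetylases, and the best-known targets are transposable elements. The genes arose by repeated tandem duplication, so that neighbours on the chromosome are often close relatives. Their mRNAs are typically of low abundance.

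The libraries held between 23788451 and 25982493 counts in the control group and between 27523812 and 29104872 in the knockdown group. CNOT7 itself stood at 178.7 ± 11.3 CPM (counts scaled to library size, mean ± SD, n = 3) with the control construct and at 43.1 ± 4.31 CPM (n = 3) with the knockdown, 24.1% of the control level, with no overlap between groups. Of 8 epithelial and colorectal markers 7 passed the filter and KRT20 did not (0 to 4 counts), and of 9 markers of leukocytes, fibroblasts and endothelium 2 were, COL1A1 and VWF. In bulk RNA, fewer cells with a transcript and less of it per cell cannot be told apart.

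Expression of the family was uneven before any comparison was made. Of the 249 genes, 196 passed the filter on low counts and 53 did not, among them 27 with no count in any library. The largest count of an untested member in any library was 22. Among the tested members the mean level ran from 0.352 to 183.9 CPM with a median of 8.59 CPM. A single gene, ZNF146, gave 7.01% of their summed CPM, a share that is not corrected for length. The summed CPM of the tested members was 2591, 2691 and 2661 in the control libraries and 2584, 2666 and 2560 in the knockdown libraries, so the groups overlapped and the family's total differed by less than its spread.

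Few members changed after CNOT7 knockdown, in either direction and by small amounts. With edgeR's quasi-likelihood test and an adjusted p under 0.05 over all genes, 9 members were higher and 11 were lower in the knockdown libraries, 20 of 196 or 10.2%. Over all 17574 tested genes 25.2% were called, 13.3% higher and 11.9% lower. The corresponding share was 31.4% of 824 other protein-coding genes of chromosome 19 and 20.5% of 229 ZNF genes on other chromosomes. The median log2 fold change of the members was 0.016 (−0.014 to 0.019 with 1 library left out, so its sign is not fixed), against 0.0039 over all tested genes. The CPM of the groups did not overlap in 49 members (26 higher and 23 lower, 25%). This share was 38.8% of all tested genes and 34.9% of the ZNF genes on other chromosomes. The log2 fold change lay under 0.5 in size in 188 members (95.9%), against 84.2% of all tested genes. In the ZNF genes on other chromosomes it did so in 93.4%, so small changes were not particular to the members. The 95% interval lay wholly within 0.5 of 0 in 133 members. Only ZNF556 and ZNF878 differed by more than 1 on the log2 scale. The differences between these sets of genes were not tested. The count depended on single libraries, as did that of all tested genes. Without control replicate 3 the test called 11 members (7 higher and 4 lower), 5.61% against 16.8% of all tested genes. Without knockdown replicate 1 it called 13 (6 and 7), 6.63% against 17.5%. Without control replicate 1 it called 15 (7 and 8), 7.65% against 19.3%. A fit with the trend of fold change on abundance removed called 7 higher and 18 lower, 12.8% against 22.9%.

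**Figure D1:**
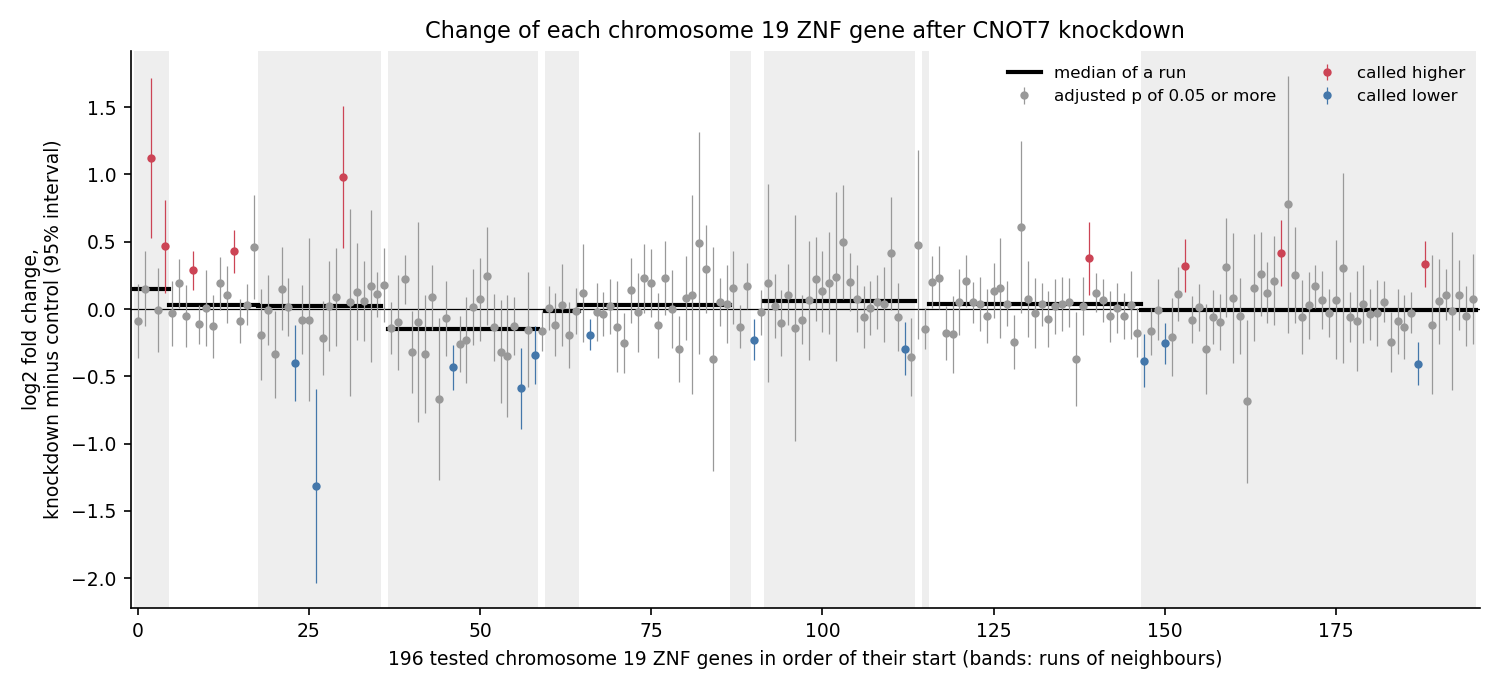
Log2 fold change (knockdown minus control) of each of the 196 tested members with its 95% interval, in order of their start along chromosome 19. Shaded and white bands are runs of neighbours, and black lines are the medians of runs with at least 5 tested members. Red (9) and blue (11) mark the called members, which are scattered among grey ones near 0.

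Among the members that rose, the lowest adjusted p was that of ZNF121, a C2H2 protein known to interact with MYC (ENSG00000197961, chr19:9560353-9584533, minus strand). Its level was 28.6, 31.9 and 31.9 CPM in the control libraries and 40.7, 44.4 and 39.2 CPM in the knockdown libraries. The log2 fold change was 0.43 (SE 0.076, adjusted p = 4.75e-04), and every knockdown library exceeded every control library. ZNF558, a KRAB zinc-finger gene of the same run of neighbours, rose from 33.4, 33.5 and 32.1 CPM to 41.5, 40.1 and 39.3 CPM (log2 fold change 0.29, SE 0.068, adjusted p = 0.00484). ZNF8, near the end of the long arm, rose from 17.7, 18.7 and 18.4 CPM to 23.0, 21.8 and 24.2 CPM. These 3 genes had narrow groups, with the nearest knockdown value clear of the nearest control value.

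The largest rises were in scarce transcripts. ZNF556 was at 0.545, 0.645 and 0.718 CPM in the control libraries, which is 14 to 18 counts, and at 1.31, 1.38 and 1.48 CPM in the knockdown libraries, 37 to 44 counts (log2 fold change 1.12, SE 0.28, adjusted p = 0.00708). ZNF563 was at 0.973, 0.946 and 0.758 CPM against 1.95, 1.70 and 1.65 CPM (log2 fold change 0.98, SE 0.25, adjusted p = 0.00789). In both, every control library was under 1 CPM and every knockdown library above it. The remaining rises were those of ZNF77 (log2 fold change 0.46), ZNF419 (0.42), ZNF816 (0.38) and ZNF581 (0.32). ZNF581 is a short gene whose 1736 bases made it the second most abundant member per kilobase, at 13.5 CPM per kilobase, and 23.4% of its exonic bases are shared with another gene on the same strand. In ZNF8 this overlap was 20.7%, and 18.8% of its 100-base words also occur in other genes. The calls of ZNF121, ZNF558, ZNF8, ZNF556 and ZNF563 were kept in all 14 refits. That of ZNF77 was lost without control replicate 1 or 2 or knockdown replicate 1 or 3 (adjusted p up to 0.158), and that of ZNF816 in every refit without 1 library except control replicate 2 (up to 0.204). ZNF419 lost its call without control replicate 2 or knockdown replicate 1 (up to 0.0633), and ZNF581 without control replicate 2 or 3 or knockdown replicate 1 or 3 (up to 0.0811).

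Among the members that fell, ZNF714 carried the clearest difference (ENSG00000160352, chr19:21082159-21125270, plus strand). It stood at 31.1, 35.5 and 33.3 CPM in the control libraries and at 24.6, 26.2 and 23.3 CPM in the knockdown libraries (log2 fold change −0.43, SE 0.079, adjusted p = 6.29e-04), 74.1% of the control level. ZNF544, which lies far from it near the end of the long arm, fell by a like amount, from 29.5, 30.2 and 28.97 CPM to 22.6, 23.2 and 21.2 CPM (log2 fold change −0.41, SE 0.076, adjusted p = 7.52e-04). In both genes the groups were well apart.

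ZNF675, known as an inhibitor of TRAF6 signalling, stood at 6.46, 8.43 and 6.46 CPM in the control libraries and at 4.83, 5.11 and 4.23 CPM in the knockdown libraries (log2 fold change −0.59, SE 0.14, adjusted p = 0.0056). ZNF254 lies in the same run of neighbours as ZNF714 and ZNF675, and it fell from 12.5, 13.8 and 13.6 CPM to 10.5, 11.3 and 9.60 CPM (log2 fold change −0.34, SE 0.10, adjusted p = 0.0193). ZNF878 had the largest fall and the smallest counts, 26 to 42 in the control and 9 to 21 in the knockdown libraries (log2 fold change −1.31, SE 0.34, adjusted p = 0.00882), and 14.1% of its 100-base words occur in other genes. Its control libraries ranged from 1.12 to 1.68 CPM and its knockdown libraries from 0.302 to 0.761 CPM. The other falls were those of ZNF69 (log2 fold change −0.40), ZNF628 (−0.38), ZNF180 (−0.30), ZNF865 (−0.25) and ZNF574 (−0.23), and that of ZNF146 (−0.19). The groups were apart in each of them. The calls of ZNF714, ZNF544, ZNF675 and ZNF628 were kept in all 14 refits. Without control replicate 3 the adjusted p was 0.132 for ZNF146, 0.0608 for ZNF878, 0.152 for ZNF69, 0.0809 for ZNF865 and 0.118 for ZNF574. Calls were also lost without control replicate 1 (ZNF69, ZNF180, ZNF865 and ZNF574), control replicate 2 (ZNF180), knockdown replicate 1 (ZNF146, ZNF69, ZNF254, ZNF180, ZNF865 and ZNF574), knockdown replicate 2 (ZNF69, ZNF180 and ZNF574) or knockdown replicate 3 (ZNF146, ZNF69 and ZNF254). Without control replicate 3 the calls of ZNF254 and ZNF180 were lost as well, and the highest adjusted p over all refits was 0.0703 for ZNF254 and 0.0769 for ZNF180.

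Of the 5 most abundant members per length, ZNF146, ZNF581 and ZNF865 were called and ZNF787 and ZNF524 were not. Over all tested genes 25.2% were called, and over the tested members 10.2%. Each of the 5 log2 fold changes lay under 0.5 in size. ZNF146, which consists almost wholly of zinc fingers without a KRAB domain and is known for overexpression in colorectal tumours, was the highest at 44.4 CPM per kilobase. It stood at 185.2, 197.0 and 205.6 CPM in the control libraries and at 171.7, 177.7 and 166.1 CPM in the knockdown libraries (log2 fold change −0.19, SE 0.056, adjusted p = 0.0191). The highest knockdown library lay under the lowest control library. ZNF581 followed at 13.5 CPM per kilobase, then ZNF787 at 12.6, ZNF524, a protein known to bind telomeric repeats, at 10.7, and ZNF865 at 10.3. ZNF581 was higher (log2 fold change 0.32, adjusted p = 0.0173) and ZNF865 lower (−0.25, adjusted p = 0.0160). ZNF787 (log2 fold change −0.08) and ZNF524 (−0.0035) had overlapping groups and adjusted p-values of 0.534 and 0.986.

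Members with a known role were taken from a list of 15. Of these 12 were tested, and 1 was called (8.33%, against 25.2% of all tested genes), the fall of ZNF146, whose call was lost without control replicate 3 or knockdown replicate 1 or 3. None of the 12 was called higher by edgeR (1 at an unadjusted p under 0.05, and 0 by DESeq2), and their median log2 fold change was −0.06. ZNF91, which silences SVA retrotransposons, stood at 11.6, 14.4 and 13.9 CPM in the control and 12.3, 12.4 and 12.0 CPM in the knockdown libraries, so the groups overlapped (log2 fold change −0.12, 95% interval −0.34 to 0.09). ZNF93, which silences LINE elements, was near 1 CPM with widely spread libraries (0.739 to 1.99 CPM in control, 0.806 to 1.96 CPM in knockdown). ZNF274, which binds the zinc-finger-coding ends of other ZNF genes and recruits SETDB1, stood at 31.1, 28.5 and 31.3 CPM against 29.9, 29.5 and 29.8 CPM, and its interval of −0.18 to 0.12 was narrow. Its level therefore differed by less than the spread between replicates.

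ZNF473, a component of the machinery that processes histone pre-mRNA, had groups that did not overlap (35.8 to 40.5 CPM in control, 34.5 to 35.5 CPM in knockdown) and did not pass the threshold (log2 fold change −0.15, adjusted p = 0.153). ZNF331, a candidate tumour suppressor of the gut, likewise had no overlap (18.5 to 18.8 CPM against 15.8 to 17.8 CPM, log2 fold change −0.17, adjusted p = 0.157). ZNF350, a partner of BRCA1, and ZNF175 gave log2 fold changes of 0.06 and 0.20 (adjusted p = 0.780 and 0.122). ZNF417 and ZNF587, close copies known to repress HERV-K elements, gave −0.24 and 0.05, ZNF808 gave 0.08 and ZNF224 gave 0.20, all above the threshold. These 4 are less certain than the others because 25.9%, 30.9%, 13.2% and 38.6% of their 100-base words also occur in other genes. ZNF304, ZNF382 and ZNF43 were below the filter, with at most 10 counts in a library.

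The low share of calls was then set against transcript abundance, since scarce genes are measured less precisely. Between 2 and 4 on the mean log2 CPM scale, where 99 of the members lie, 3 were higher and 4 lower (7.07%), while 29.6% of 2391 other protein-coding genes in that range were called. Of the 91 ZNF genes of other chromosomes in that range 15.4% were called. The median standard error of the log2 fold change was 0.12 in each of these sets. The median size of the fold change was 0.108 in the members, 0.140 in those ZNF genes and 0.201 in the other protein-coding genes. At 4 and above, 10 of 53 members were called (18.9%), against 30.6% of 8666 others and 26.9% of 108 ZNF genes of other chromosomes. These sets were not matched in level or precision. The median mean log2 CPM was 4.72 in the members, 5.81 in the others and 5.14 in those ZNF genes. The median standard errors were 0.082, 0.069 and 0.076. Between 0 and 2, 2 of 37 members were called (5.41%), against 28.8% of 1512 others and 11.5% of 26 ZNF genes of other chromosomes. Under 0 there were only 7 members, of which 1 was called.

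Over all tested genes, low transcripts tended to be higher and abundant ones lower in the knockdown libraries (r = −0.23, 17574 genes). In the members Pearson r was closer to 0, whereas in the ZNF genes of other chromosomes it was like that of all genes. By Spearman rho, −0.23 over all genes, the ZNF genes of other chromosomes lay nearer to the members. With the level taken as log2 CPM per kilobase, rho was −0.178 in the members and −0.179 in those ZNF genes. A weaker relation to level was therefore not particular to the members. The median log2 fold change of the members was 0.091 between 0 and 2 and −0.014 at 4 and above, against 0.243 and −0.044 in the other protein-coding genes. Across the 196 members the log2 fold change correlated with the mean log2 CPM at Pearson r = −0.15 and Spearman rho = −0.15, a description across genes that share the same 6 libraries. The same values were −0.23 and −0.18 over the 229 ZNF genes of other chromosomes and −0.36 and −0.36 over the 824 other protein-coding genes of the chromosome, and the differences between these sets were not tested. The rho of the members was −0.08 with DESeq2 and −0.09 without control replicate 1. It was 0.11, with its sign changed, where the trend over all genes had been removed. That trend was negative and stronger than the members' own, so a rise of rho was built into that fit.

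**Figure D2:**
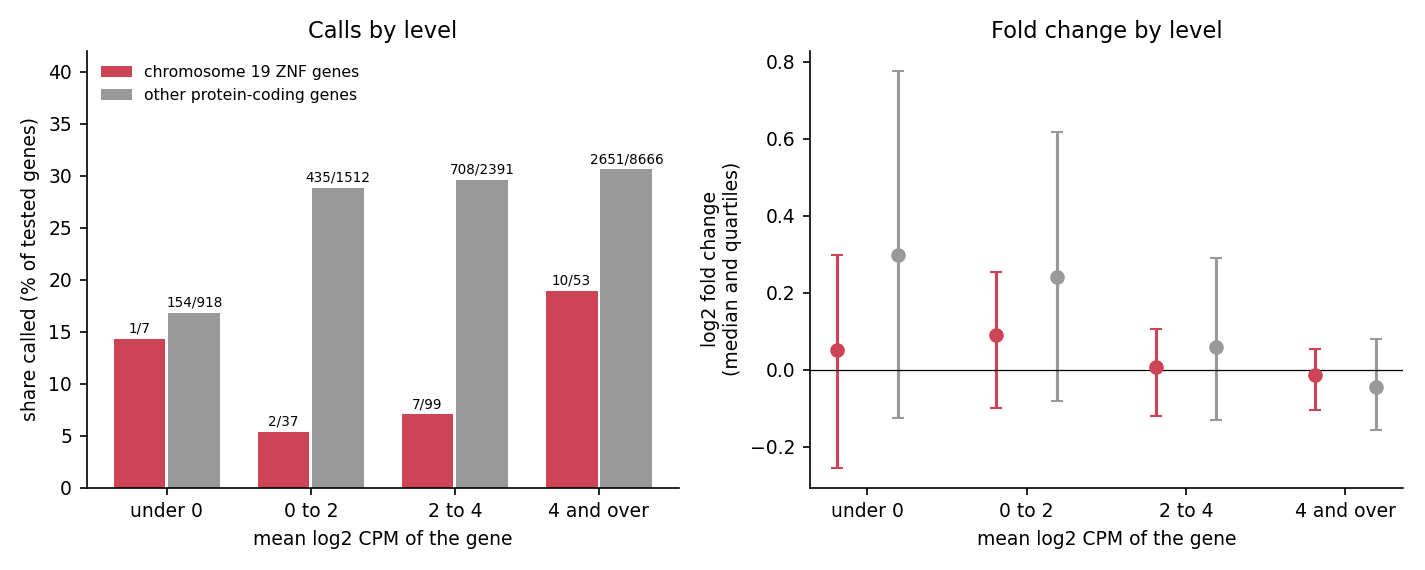
Left, the share of tested genes called in each range of mean log2 CPM for members (red) and other protein-coding genes (grey), with the number called over the number tested above each bar. Right, the median log2 fold change and its quartiles in the same ranges. The members' share is below that of the other genes in each range, and their medians lie nearer 0.

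Position along the chromosome was examined by splitting the members wherever neighbouring starts lay more than 1 Mb apart. This gave 16 runs, 9 of them with at least 5 tested members. Over the whole chromosome the log2 fold change showed little relation to the start (Pearson r = 0.04, Spearman rho = 0.06, 196 members). Neighbouring tested members of a run changed in the same direction in 96 of 181 pairs (r = 0.18), pairs that share genes and libraries.

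Among the runs with at least 5 tested members, the lowest median was that of the run from ZNF101 to ZNF254, whose first and last starts are 19668796 and 24033405. It holds 37 members, ZNF91 among them. Of the 37, 10 had no count in any library, against 17 of the 212 members elsewhere, and 22 were tested. The median log2 fold change of the 22 was −0.15, and 5 were above 0. None was called higher by edgeR (1 at an unadjusted p under 0.05, and 0 by DESeq2) and 3 were called lower, ZNF714, ZNF675 and ZNF254. This is 13.6% of the run, near the 11.9% called lower among all tested genes. ZNF101 and ZNF431 were lower and ZNF506 was higher in every knockdown library than in any control library without passing the threshold, with log2 fold changes of −0.14, −0.26 and 0.22. ZNF66 had the largest difference of the run, −0.67, with overlapping groups and an adjusted p of 0.098. The 13 tested genes between them that are no members, none of them protein-coding, were not called in either direction, with 0 at an unadjusted p under 0.05 and 0 by DESeq2, and had a median of 0.08.

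Read by library, the run's median relative to the control mean was −0.12, 0.11 and 0.02 in the control libraries and −0.21, −0.09 and −0.37 in the knockdown libraries. The second knockdown library thus lay above the first control library, and the groups overlapped. Without knockdown replicate 2 the median was −0.31, without control replicate 1 it was −0.26, and with the trend on abundance removed it was −0.28 with 6 called lower.

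Of the other runs with at least 5 tested members, the first differed from 0 by as much in the opposite direction. The 5 genes from ZNF554 to ZNF77 had a median of 0.15, with ZNF556 and ZNF77 called higher (40%, against 13.3% of all tested genes), and the 13 from ZNF557 to ZNF846 had 0.03, with ZNF121 and ZNF558 called higher. In both runs every knockdown library's median lay above every control library's. The medians of the remaining runs of this size were nearer 0. They were 0.02 from ZNF653 to ZNF791 (18 tested, 1 higher and 2 lower), −0.01 from ZNF302 to ZNF792 (5 tested), 0.03 from ZNF565 to ZNF573 (22 tested), 0.06 from ZNF575 to ZNF296 (22 tested), 0.04 from ZNF175 to ZNF331 (31 tested) and −0.0035 from ZNF628 to ZNF446 (49 tested, 3 higher and 3 lower). The libraries of the groups overlapped in each of these. The short runs were those of ZNF333 (log2 fold change 0.18), ZNF536 (untested), ZNF507 (−0.16), ZNF546 with ZNF780B and ZNF780A (median 0.16), ZNF574 with ZNF526 (median −0.13), ZNF541 (untested) with ZNF114 (0.48), and ZNF473 (−0.15).

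Members of the run from ZNF101 to ZNF254 share more than their position. Promoter identity was measured only against ZNF91, so likeness within the other runs was not measured. Promoters from RefSeq (GRCh38.p14, 250 bases before to 50 after the most upstream start) were found for 217 members, 173 of them tested. The letters CCAATCA, in which a CCAAT box is contained, were searched on both strands, and the motif was chosen after the promoters had been viewed. They occurred in 6.95% of 35116 promoters of all genes and in 64 of the 217 members (29.5%). Each member gave 1 promoter, whereas the shares over all genes counted every promoter listed. The matches were gathered in few runs. All 29 promoters of the run of ZNF91 held the motif, as did 23 of 25 from ZNF653 to ZNF791 and 4 of 5 from ZNF554 to ZNF77. It was in 0 of 14 from ZNF557 to ZNF846, 0 of 24 from ZNF565 to ZNF573, 1 of 20 from ZNF575 to ZNF296, 1 of 33 from ZNF175 to ZNF331 and 5 of 54 from ZNF628 to ZNF446. The letters CCGGAAG, which contain the core of an ETS site and cannot share a base with the first motif on either strand, were in 10.3% of all promoters and in 45.2% of the members', with 21 of 29 in the run of ZNF91 and 2 of 25 from ZNF653 to ZNF791.

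The promoters of the 3 genes of that run that fell are printed with that of ZNF91, which did not pass the test, and with that of ZNF121, the clearest rise, which holds no match. Each is the 250 bases before the start, 5′ to 3′ on the gene's strand, with CCAATCA in capitals. They lie at chr19:21081953-21082202 (ZNF714, plus), chr19:23687213-23687462 (ZNF675, minus), chr19:24086937-24087186 (ZNF254, plus, inside the gene as the count table places it), chr19:23395472-23395721 (ZNF91, minus) and chr19:9584505-9584754 (ZNF121, minus).
ZNF714: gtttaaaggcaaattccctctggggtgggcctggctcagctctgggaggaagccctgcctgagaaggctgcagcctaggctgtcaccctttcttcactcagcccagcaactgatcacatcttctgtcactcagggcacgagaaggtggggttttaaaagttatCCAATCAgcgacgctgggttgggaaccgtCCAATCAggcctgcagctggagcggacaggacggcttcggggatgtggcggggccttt
ZNF675: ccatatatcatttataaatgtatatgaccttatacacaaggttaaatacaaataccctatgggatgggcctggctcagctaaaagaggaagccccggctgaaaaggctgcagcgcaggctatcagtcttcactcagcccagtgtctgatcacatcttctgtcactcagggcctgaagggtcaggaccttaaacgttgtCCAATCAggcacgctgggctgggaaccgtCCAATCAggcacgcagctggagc
ZNF254: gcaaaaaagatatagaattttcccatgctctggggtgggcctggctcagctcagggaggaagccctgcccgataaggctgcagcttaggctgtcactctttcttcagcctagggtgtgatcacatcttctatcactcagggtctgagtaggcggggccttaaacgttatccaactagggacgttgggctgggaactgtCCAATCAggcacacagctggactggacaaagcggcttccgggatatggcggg
ZNF91: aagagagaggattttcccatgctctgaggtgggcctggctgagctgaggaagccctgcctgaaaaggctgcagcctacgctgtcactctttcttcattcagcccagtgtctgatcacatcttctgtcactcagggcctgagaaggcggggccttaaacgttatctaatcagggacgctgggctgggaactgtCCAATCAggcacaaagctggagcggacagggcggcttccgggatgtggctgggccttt
ZNF121: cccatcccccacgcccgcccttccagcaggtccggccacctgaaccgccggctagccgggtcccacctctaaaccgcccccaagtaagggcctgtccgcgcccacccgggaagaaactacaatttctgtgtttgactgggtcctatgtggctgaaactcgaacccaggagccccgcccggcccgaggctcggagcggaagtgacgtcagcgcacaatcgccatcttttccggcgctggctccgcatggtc
The first 4 resemble one another over most of their length, and that of ZNF675 differs from the others at its upstream end. Aligned to the promoter of ZNF91, that of ZNF254 was identical at 90.0% of aligned bases, that of ZNF714 at 86.7% and that of ZNF675 at 83.9%, and that of ZNF121 at 59.4%. ZNF714 and ZNF675 hold the motif in duplicate. Across the 28 other promoters of the run the identity to ZNF91 had a median of 83.9% and ranged from 59.3% to 90.0%. In the run from ZNF653 to ZNF791 the median was 68.6%, and in the other runs it lay between 55.6% and 64.4%. The scoring put no penalty on mismatches or end gaps, so a value such as 59.4% does not by itself show likeness.

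The motif was then set beside the fold changes. The 47 tested members that hold CCAATCA had a median log2 fold change of −0.06 (16 above 0, 3 called higher and 5 lower), and the 126 that lack it had 0.03 (75 above 0, 6 higher and 6 lower). Outside the run of ZNF91 the 28 holders had a median of −0.01, with 3 called higher and 2 lower. The holders ZNF556, ZNF563 and ZNF77 rose, and the holders ZNF878, ZNF69, ZNF714, ZNF675 and ZNF254 fell, so the called holders did not all change in one direction. All 19 tested promoters of the run of ZNF91 hold the motif, so motif and run cannot be told apart there. No test was run on these medians.

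Among the cofactors through which KRAB proteins act, those that passed the threshold were lower. Of 19 corepressor genes, 7 were lower (36.8%) and none was higher (0 higher also at an unadjusted p under 0.05 and by DESeq2), with a median log2 fold change of −0.07. The rest were not called, and 4 of the 19 were above 0. Among them was SETDB1 (log2 fold change 0.09, adjusted p = 0.406), whose knockdown libraries all lay above its control libraries. Over all tested genes 11.9% were lower, and among other protein-coding genes at a mean log2 CPM of 4 and above, where these abundant genes lie, 19.2% were lower and 11.4% higher. The difference was not tested. UHRF1, which guides maintenance DNA methylation, stood at 161.2, 149.9 and 156.3 CPM in the control and 113.1, 103.2 and 110.2 CPM in the knockdown libraries (log2 fold change −0.52, SE 0.057, adjusted p = 3.92e-06). DNMT1, the maintenance methyltransferase, fell by 0.26 on the log2 scale, HDAC2 by 0.26, and the HP1 gene CBX1 by 0.33. TRIM28 itself gave −0.14 (SE 0.049) at an adjusted p of 0.0496. It is the closest call of the list, and it was lost in 8 of the 14 refits. MTA2 (−0.17) and CHD3 (−0.20) were called too. These genes are abundant, and with the trend on abundance removed 4 of the 7 calls stood, those of TRIM28, MTA2 and CHD3 being lost. Without control replicate 1 or 3 the list also had 4 calls, without those of the same 3 genes, and UHRF1, DNMT1, HDAC2 and CBX1 kept theirs in all 14 refits.

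Zinc-finger genes of chromosome 19 with other names gave mixed results. Of 23 listed, 19 were found on the chromosome under the listed name and 10 were tested, of which 3 were called (30%, against 25.2% of all tested genes). HKR1 was higher, at 16.7, 17.1 and 15.2 CPM in the control and 21.3, 18.1 and 23.3 CPM in the knockdown libraries (log2 fold change 0.36, SE 0.099, adjusted p = 0.0138). MZF1, a SCAN-domain factor named for myeloid cells, and ZBTB45, a BTB-domain factor, were lower, with log2 fold changes of −0.25 and −0.26 (adjusted p = 0.0207 and 0.0165). In each of the 3 the groups did not overlap. Without control replicate 3 all 3 calls were lost. Those of HKR1 and ZBTB45 were also lost without knockdown replicate 1, that of HKR1 without knockdown replicate 3, that of ZBTB45 without control replicate 1 and that of MZF1 without knockdown replicate 2, with adjusted p-values up to 0.0793 for HKR1, 0.104 for MZF1 and 0.0751 for ZBTB45.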

How the data were processed

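RNA from 3 control and 3 CNOT7 knockdown samples was sequenced, and groups and replicate numbers were taken from the labels. Whether the libraries of a group came from separate cultures was not stated, so p-values measure the spread between these libraries. The authors deposited raw counts of reads for every gene and library, with no normalization. The submitters' processing notes name CASAVA 1.8, fastp, HISAT2 2.0.5, featureCounts 1.5.0-p3, DESeq2 1.20.0 and GRCh38. Strandedness and the handling of reads with several matches were not given in the sources used here, so reads from overlapping genes or near copies may be shared, split or dropped. Starts and ends of all 249 members equalled GENCODE 29. The number of columns from other samples was 0.

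Counts were fitted over the whole table in R 4.3.3 with edgeR 4.0.16 (filterByExpr, TMM, glmQLFit and glmQLFTest, no replicate term), with Benjamini-Hochberg adjustment over the 17574 tested genes at a threshold of 0.05 without a minimum fold change. Intervals of 95% use the moderated degrees of freedom of the fit. The standard errors given carry the precision that this depth allows. CPM used TMM factors, and log2 CPM for each library used a prior count of 2. No 2 libraries of a group were copies, since their counts differed beyond sampling. The steps were tested on simulated data. The share of a gene's 100-base words that occur in other genes was counted in GENCODE 29 transcripts. Promoters came from RefSeq (GRCh38.p14) and were aligned in Biopython 1.88. Tables and plots were made with Python 3.11.15, pandas 2.3.3, numpy 2.4.6 and matplotlib 3.10.9.

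Named genes were CNOT7, the 15 members with a known role, the 10 largest rises and 10 largest falls among called members without overlap, the 5 highest members per kilobase, and the called genes of the 2 other lists. Members of the run from ZNF101 to ZNF254 and the promoters printed were named after their values were seen. The members and lists were chosen with earlier results of these data known. The alternatives were RLE factors, DESeq2 1.42.0, no filter, a minimum of 10 counts per library, a block for the replicate number, offsets that remove the trend on abundance (cyclic loess in limma 3.58.1) or on gene length, TMM factors from protein-coding genes, a gap of 0.5 Mb and each library left out.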

Additional observations from a re-analysis of the deposited data

How the results depend on the processing

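The share of members called stayed under that of all tested genes in each of the 14 refits, with the closest pair at 9.01% against 13.2% without the filter on low counts. The median log2 fold change of the members was 0.016 and became −0.048 with the trend on abundance removed, where 18 members were called lower and 4 corepressor genes were. The Spearman correlation with level (−0.15) was −0.0779 with DESeq2, −0.0777 without the filter and 0.11 with that trend removed. The deviations of same-numbered libraries correlated at 0.0228, 0.153 and −0.0153. Differently numbered libraries of opposite groups gave values from −0.151 to 0.132. The main fit did not take the numbers as pairs. A fit with a replicate block called 16 members higher and 20 lower (18.4%), against 37% of all tested genes. Without the block these shares were 10.2% and 25.2%. The block fit called 3306 genes lower in the whole table, and 1 gene higher and 2 lower among the members with a known role. Beyond these correlations and this fit no paired check was made, so whether the numbers mark pairs was not settled.

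With 1 library left out at a time, the number of members called ranged from 6 to 8 higher and from 4 to 12 lower, and that of all genes from 1626 to 2323 higher and from 1367 to 2219 lower. The median of the run from ZNF101 to ZNF254 ranged from −0.31 to −0.12 and the correlation with level from −0.164 to −0.0926, and the median of all members from −0.014 to 0.019. Corepressor genes called lower ranged from 4 to 7, other zinc-finger genes of the chromosome from 0 to 1 higher and from 0 to 2 lower, and members with a known role from 0 to 1 lower. The cause of these shifts was not tested, beyond the smaller number of libraries.

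Of 601 values of named genes under the alternatives, 517 kept their direction and their side of the threshold, 71 lost the call, 3 gained one and 10 changed sign. DESeq2 lost the calls of ZNF77, ZNF816 and ZNF69, and removal of the trend with abundance those of ZNF146, ZNF77 and ZNF816. The 10 changes of sign were in genes near 0. ZNF524 was at 0.0020 with factors from protein-coding genes, 0.0011 with at least 10 counts, and between −0.0903 and 0.0802 with 1 library left out (above 0 without control replicate 1 or 3 or knockdown replicate 2). ZNF350 was at −0.0288 with the trend on abundance removed. With 1 library left out, ZNF93 lay between −0.50 and 0.26 (above 0 without control replicate 3 or knockdown replicate 3) and ZNF808 between −0.0348 and 0.20 (below 0 without control replicate 3 or knockdown replicate 2). At 3 libraries a group the median standard error of a member's log2 fold change was 0.12, so differences of that size, and of a few such errors, could not be called in most members.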

Other observations

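The table also holds 32 chromosome 19 genes with a ZNF name that are not protein-coding, pseudogenes and antisense or processed transcripts. Of these, 8 had no count in any library and 9 passed the filter. None of the 9 was called by edgeR in either direction, with 0 at an unadjusted p under 0.05 and 0 by DESeq2. Their log2 fold changes ran from −0.34 for ZNF137P to 0.61 for ZNF460-AS1, a transcript with 5 to 18 counts in a library, and 7 of the 9 were above 0. ZNF433-AS1, the most abundant of them in CPM, stood at 4.09, 5.07 and 4.27 CPM in the control libraries and at 4.40, 4.96 and 5.94 CPM in the knockdown libraries, and the groups overlapped.

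Within chromosome 19, the library medians of the members and of the 824 other protein-coding genes deviated from their control means in opposite directions in control replicates 1 and 2 and knockdown replicates 2 and 3. Relative to those means the members were at −0.05, 0.05 and 0.01 in the control libraries and −0.02, 0.05 and −0.0042 in the knockdown libraries, and the other genes were at 0.07, −0.08 and 0.02 in control and −0.0087, −0.13 and 0.06 in knockdown.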
